A study of Homo sapiens with 14 samples.

Results

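The KDM4 histone demethylase genes KDM4A, KDM4B, KDM4C and KDM4D and the chromatin remodeller gene CHD1 were described by the ATAC-seq peaks in and around them. ATAC-seq marks open DNA by the insertion of adapters with the Tn5 transposase. Members were all peaks in 5 fixed hg19 windows: chr1:44090000-44190000 for KDM4A, chr19:4940000-5180000 for KDM4B, chr9:6700000-7200000 for KDM4C, chr11:94690000-94750000 for KDM4D and chr5:98170000-98290000 for CHD1. The windows held 1200 of the 1971391 peaks in the 14 deposited lists, which merged into 234 of 410350 sites. Of these sites 21 lay in the KDM4A window, 151 in the KDM4B window, 50 in the KDM4C window, 2 in the KDM4D window and 10 in the CHD1 window.

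The study addressed KDM4B in rhabdomyosarcoma driven by the fusion transcription factor PAX3-FOXO1. RH30, an alveolar rhabdomyosarcoma line that carries its own PAX3-FOXO1 fusion, was treated with 200 nM QC6352, an inhibitor of KDM4 demethylases, or with 0.1% DMSO. In other libraries RH30 was transduced for 72 h with the KDM4B hairpins shKDM4B-813 or shKDM4B-814, or with a control hairpin (shCtrl). LHCN, an immortalised human myoblast line, overexpressed PAX3-FOXO1 or carried an empty vector for 72 h. Each of the 7 groups held 2 libraries of 100000 cells. Whether the 72 h in the protocol also covers QC6352 and DMSO is not clear from its wording. Each experiment used a single line, and no label tells whether the replicates of a group are separate cultures. The p-values therefore measure the spread between libraries, possibly a technical one. The assay does not measure KDM4B transcript or protein, and the depth of the knockdown is not known here.

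KDM4 proteins are iron- and 2-oxoglutarate-dependent Jumonji demethylases that remove methyl groups from histone H3 at lysine 9 and, for KDM4A, KDM4B and KDM4C, at lysine 36. KDM4A, KDM4B and KDM4C also carry PHD and Tudor domains that bind modified histones, whereas KDM4D lacks them. CHD1 is an ATP-dependent remodeller that spaces nucleosomes along transcribed genes, and its paired chromodomains bind methylated lysine 4 of histone H3. Open chromatin at a gene's start and inside its body marks candidate promoter and enhancer DNA, and is not a measure of its transcript level.

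The DNA just upstream of the 5 starts is shown because the start sites were the elements these genes had in common in every library. Each line gives the 250 bases before the gene start in RefSeq on GRCh38.p14, read 5′ to 3′ on the gene's strand, with CCAAT, or ATTGG where it lies on the other strand, in capitals.

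KDM4A: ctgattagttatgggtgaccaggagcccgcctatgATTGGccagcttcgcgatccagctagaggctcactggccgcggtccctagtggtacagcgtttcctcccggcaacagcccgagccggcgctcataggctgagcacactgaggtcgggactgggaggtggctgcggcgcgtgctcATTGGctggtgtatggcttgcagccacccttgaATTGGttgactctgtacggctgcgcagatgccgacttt
KDM4B: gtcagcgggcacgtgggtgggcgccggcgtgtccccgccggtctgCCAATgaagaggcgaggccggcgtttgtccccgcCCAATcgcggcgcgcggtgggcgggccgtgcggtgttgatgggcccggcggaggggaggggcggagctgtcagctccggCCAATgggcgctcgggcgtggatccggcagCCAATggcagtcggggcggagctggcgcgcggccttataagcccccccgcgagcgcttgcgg
KDM4C: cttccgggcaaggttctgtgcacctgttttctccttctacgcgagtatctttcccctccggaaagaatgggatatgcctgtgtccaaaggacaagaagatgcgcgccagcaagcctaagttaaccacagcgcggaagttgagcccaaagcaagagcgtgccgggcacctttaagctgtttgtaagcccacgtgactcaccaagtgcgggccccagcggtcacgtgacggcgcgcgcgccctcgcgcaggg
KDM4D: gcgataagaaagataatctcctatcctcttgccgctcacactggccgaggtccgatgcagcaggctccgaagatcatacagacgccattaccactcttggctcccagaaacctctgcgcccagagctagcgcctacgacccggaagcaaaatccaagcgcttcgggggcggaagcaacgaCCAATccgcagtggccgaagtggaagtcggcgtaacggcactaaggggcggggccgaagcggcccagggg
CHD1: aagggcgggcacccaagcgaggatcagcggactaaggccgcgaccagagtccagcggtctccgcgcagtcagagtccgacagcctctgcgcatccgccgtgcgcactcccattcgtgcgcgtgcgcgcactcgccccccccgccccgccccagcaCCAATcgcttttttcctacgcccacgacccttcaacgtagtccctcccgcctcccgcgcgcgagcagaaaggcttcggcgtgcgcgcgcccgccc

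CCAAT on either strand occurred 4 times before KDM4B and 3 times before KDM4A. It occurred once each before KDM4D and CHD1, and these letters were not in the 250 bases before KDM4C. Of 35116 RefSeq promoters cut to the same 250 bases, 32% held CCAAT at least once, 2.93% at least 3 times and 0.874% at least 4 times. GGGCGG on either strand occurred 4 times before KDM4B, where 1 copy shares bases with a CCAAT match, 4 times before CHD1 and 2 times before KDM4D, and not before KDM4A or KDM4C. At least 4 copies were found in 7.63% of all promoters. The KDM4B and CHD1 sequences each held 36 CpG dinucleotides, more than 95.1% of promoters, against a median of 11. KDM4D held 22, KDM4C 21 and KDM4A 17. A match to these letters describes the sequence and is not evidence of binding.

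The lists differed in length, between 93488 peaks (the second library of shKDM4B-814) and 176899 peaks (the second of QC6352), and read depth is not known from them. The 93488 strongest peaks of each list, ordered by the authors' −log10 q and then by fold over background, were therefore used where all 14 libraries were compared. The weakest peaks kept had −log10 q from 15.8 to 22.4 in LHCN and from 2.21 to 7.49 in RH30, so RH30 lists kept weaker peaks. A library's rank for a site is the place of its strongest peak there in the full list, with 1 the strongest and ties given their mean rank. The labelled lineage was checked at gene starts: MYOD1, MYF5 and DES, which mark muscle cells, had a peak in 14 of 14 libraries, and MYOG, the differentiation factor myogenin, in 10 of 10 RH30 and 0 of 4 LHCN libraries. In RH30, MYOD1 ranked from 1418.5 to 5242 and DES from 15417 to 42698.5. The MYF5 peak was weak in RH30, at ranks from 44731.5 to 114666, against 2380.5 to 4270 in LHCN. PTPRC, a leukocyte marker, had none in any library. The epithelial marker EPCAM had a weak peak in both QC6352 and both shCtrl libraries, at ranks from 90502 to 136828, and CDH1 had a peak in the first shCtrl library at rank 126710. Libraries also differed in the share of their 93488 strongest peaks on chromosome 19, where KDM4B lies. It was 4.04% and 3.28% with QC6352, against 2.61% and 2.75% with DMSO. It was 2.25% and 2.73% with shKDM4B-813 and 2.64% and 2.96% with shKDM4B-814, against 5.39% and 5.09% with shCtrl, which stood apart, and 2.27% to 2.59% in LHCN.

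Sites open in every library were few and included all 5 start sites. In the equal-length lists 15 of 158 regions in the windows had a peak in all 14 libraries, against 9.69% of all regions genome-wide. They were 7 regions of KDM4B, 3 of KDM4A, 3 of KDM4C and 1 each of KDM4D and CHD1. Of the 234 sites in the full lists, 132 had a peak in RH30 libraries alone and 51 in LHCN libraries alone. The RH30 sites came mostly from KDM4B, with 123 of its 151 sites, and the LHCN sites from KDM4C, with 36 of its 50. These counts favour RH30 by number, with 10 libraries against 4 of LHCN, and 64 of the 234 sites had a peak in 1 library. A genome-wide share of such sites is not given here.

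The KDM4A start site (chr1:44114617-44116700) was the strongest of the 5 by median rank in RH30 and lay near the top of every list. KDM4A encodes the founding member of the family. Its rank was 2681.5 and 6015 with QC6352, against 836.5 and 783 with DMSO. It was 2672 and 1778.5 with shKDM4B-813 and 2718.5 and 1215.5 with shKDM4B-814, against 1255 and 838.5 with shCtrl. In LHCN it was 1918.5 and 2508.5 with PAX3-FOXO1, against 555.5 and 677.5 with vector. The rank was weaker in both QC6352 than in both DMSO libraries, in both shKDM4B-813 than in both shCtrl libraries and in both PAX3-FOXO1 than in both vector libraries, while shKDM4B-814 and shCtrl overlapped.

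The KDM4B start site (chr19:4967991-4969637), the promoter of the gene that the hairpins target, was open in every library. Its rank was 960.5 and 9282.5 with QC6352, against 1845.5 and 1282 with DMSO. It was 9777 and 4041.5 with shKDM4B-813 and 6649.5 and 3960 with shKDM4B-814, against 2575.5 and 4233 with shCtrl. In LHCN it was 2200 and 1323 with PAX3-FOXO1, against 865.5 and 717 with vector. Only the LHCN groups did not overlap, with PAX3-FOXO1 weaker, and the QC6352 libraries lay on either side of DMSO.

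The KDM4C start site (chr9:6756853-6759472) and the KDM4D start site (chr11:94706213-94707141) were weaker by rank than those of KDM4A and KDM4B in each of the 14 libraries. KDM4C had a rank of 23058 and 11928 with QC6352, against 13048.5 and 14707 with DMSO. It had 14989 and 26206 with shKDM4B-813 and 20703.5 and 22799.5 with shKDM4B-814, against 17691.5 and 30437.5 with shCtrl. No KDM4C comparison within a line separated the groups, since in LHCN it had 5828.5 and 10411.5 with PAX3-FOXO1, against 8138.5 and 6608.5 with vector. KDM4D, a testis-enriched family member whose start lies beside the divergent gene CWC15, had 43452.5 and 15647.5 with QC6352, against 22727.5 and 30196 with DMSO. It had 31471 and 26206 with shKDM4B-813 and 18070 and 17945 with shKDM4B-814, against 24630.5 and 40830.5 with shCtrl. KDM4D was stronger in both shKDM4B-814 than in both shCtrl libraries, and in LHCN it was stronger with PAX3-FOXO1, at 3198 and 3339.5, than with vector, at 3986 and 6608.5.

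The CHD1 start site (chr5:98263442-98265637) had 1830 to 2165 bp covered by peaks in each library. Its rank was 9000 and 6597.5 with QC6352, against 5754 and 5876.5 with DMSO, which did not overlap. It was 7291.5 and 4641 with shKDM4B-813 and 4331.5 and 3174.5 with shKDM4B-814, against 3580 and 7072 with shCtrl. In LHCN it was 1440 and 1153 with PAX3-FOXO1, against 1644.5 and 1128 with vector. Neither the hairpin nor the LHCN groups were separate.

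**Figure D1:**
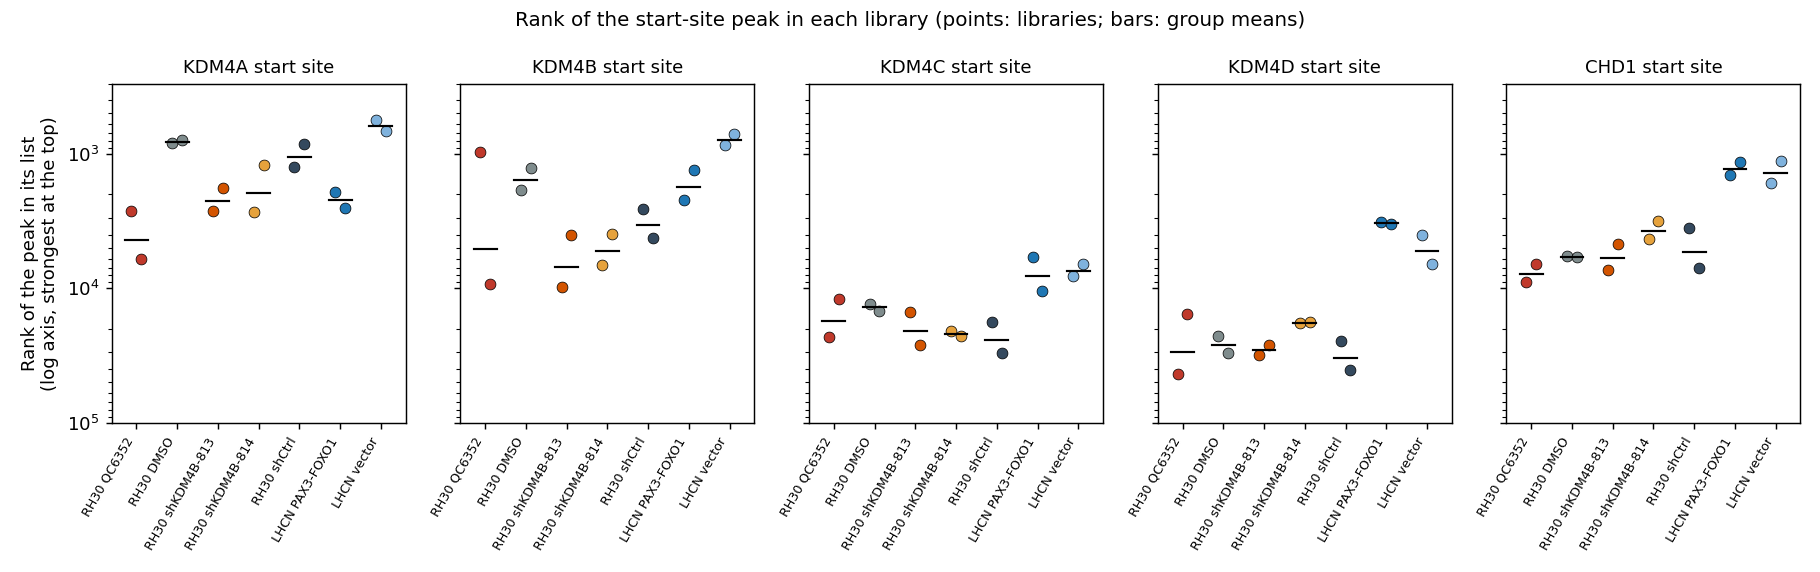
Rank of the start-site peak of each gene in each library, on a log axis with the strongest rank at the top; points are libraries and bars are group means (n = 2). KDM4A ranks 2681.5 and 6015 with QC6352 and 836.5 and 783 with DMSO, and KDM4D sits between 15647.5 and 43452.5 in RH30.

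Start sites that separate 2 small groups by rank are common, so these orders were read against all regions with a peak in every library compared. KDM4A and CHD1 were the 2 of 5 weaker with QC6352, against 28.8% of such regions genome-wide, and 0 were stronger, against 23.3%. With shKDM4B-813, KDM4A alone was weaker, against 33%, and none was stronger, against 25.3%. With shKDM4B-814, KDM4D alone was stronger, against 23.6%, and none was weaker, against 25.6%. No start site separated all 4 hairpin libraries from shCtrl, against 14.8% of regions stronger and 16.4% weaker. With PAX3-FOXO1, KDM4A and KDM4B were weaker, against 38.7%, and KDM4D was stronger, against 28.7%.

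No start site passed the test for KDM4 perturbation as a whole. The within-list percentile of the KDM4A start site, where 100 would be the strongest peak, averaged 95.9 ± 2.24 with QC6352, against 99.2 ± 0.0360 with DMSO (SD, n = 2 each). It averaged 97.6 ± 0.676 with shKDM4B-813 and 97.9 ± 1.14 with shKDM4B-814, against 98.9 ± 0.315 with shCtrl. The mean difference over both experiments was −2.24 points, with a two-sided exact permutation p of 0.0333 over 90 label sets and an adjusted p of 0.333 over 10 values. For KDM4B the difference was −3.14 points (exact permutation p = 0.200, adjusted p = 0.667). The other 3 start sites had exact permutation p-values from 0.567 to 0.989.

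Between the lines, 3 of the 5 start sites did not overlap in rank, all weaker in RH30 libraries, against 13.1% of all regions open in all 14 equal-length lists. KDM4D had a median rank of 25418 in RH30, against 3663 in LHCN. KDM4C had 19198 against 7374, and CHD1 had 5815 against 1297. The KDM4A and KDM4B start sites overlapped between the lines, with medians of 1517 in RH30 and 1298 in LHCN for KDM4A, and 4001 in RH30 and 1094 in LHCN for KDM4B. Of 8 other lysine demethylase genes looked at in the same way, KDM1A, KDM2A, KDM3A, KDM3B, JMJD1C, PHF8 and KDM7A had a start-site peak in all 14 libraries and none of them separated the lines. KDM2B had one in no RH30 library and in 3 LHCN libraries, at ranks from 131285 to 173613.

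Peak numbers per window differed between the lines in 4 of 5 windows at an adjusted p below 0.05. The test took the 14 libraries as exchangeable, although they fall in 7 groups of 2 and RH30 pools control and perturbed libraries. Its p-values thus do not stand for 14 independent cultures. In the 93488 strongest peaks, the KDM4A window held 4.8 ± 1.14 peaks in RH30 (SD, n = 10), against 7.75 ± 1.5 in LHCN (SD, n = 4), a difference of −2.95 (two-sided exact permutation test, adjusted p = 0.00999). The KDM4C window held 10.1 ± 3.03 peaks in RH30, against 16.8 ± 2.06 in LHCN, a difference of −6.65 (exact permutation, adjusted p = 0.00999). RH30 ranged from 6 to 15 peaks at KDM4C, with a median of 11, and LHCN from 14 to 19. The CHD1 window held 1.9 ± 0.738 peaks in RH30, against 3.25 ± 0.957 in LHCN (difference −1.35, exact permutation, adjusted p = 0.0483). The KDM4D window held 1 peak in each library but the first with QC6352, which had 2 (difference 0.1, exact permutation, adjusted p = 1.00). RH30 and LHCN ranges met at 7 peaks for KDM4A, at 14 and 15 for KDM4C and from 2 to 3 for CHD1. The CHD1 call was lost, with adjusted exact permutation p-values from 0.0583 to 0.101, without vector 1 or 2, PAX3-FOXO1 2, QC6352 1, shCtrl 1 or 2, or shKDM4B-814 2.

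The KDM4B window was the one with more peaks in RH30. It held 38.7 ± 25.6 peaks in RH30 (SD, n = 10), against 10.5 ± 1.29 in LHCN (SD, n = 4), a difference of 28.2 (two-sided exact permutation test, adjusted p = 0.0487). RH30 ran from 16 to 89 peaks with a median of 26.5, and LHCN from 9 to 12, so in these trimmed lists each RH30 library lay above each LHCN library. Of 11855 genome tiles of the same width, 11.1% had that order. Without the 4 shCtrl and QC6352 libraries, which had the most peaks, the difference was 11.2 (exact permutation, adjusted p = 0.0238). This set was not planned in advance. Its libraries were already fully separate by line, which alone fixes that p, so it adds no evidence. The call was lost, with adjusted exact permutation p-values from 0.0536 to 0.0991, on leaving out any 1 of the 4 LHCN, the 2 QC6352 or the 2 shCtrl libraries, or shKDM4B-814 2. In the full lists the lines overlapped: LHCN held 19 to 25 KDM4B peaks, DMSO 1 held 22 and shKDM4B-814 1 held 24.

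With the 50000 strongest peaks of each list none of the 4 line calls held: the differences were −0.55 for KDM4A, 9.75 for KDM4B, −0.50 for KDM4C and 0.20 for CHD1, with adjusted exact permutation p-values from 0.220 to 0.940. Among peaks with −log10 q of at least 10 the KDM4B difference was −0.15, with adjusted p = 1.00 in the same exact permutation test.

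**Figure D2:**
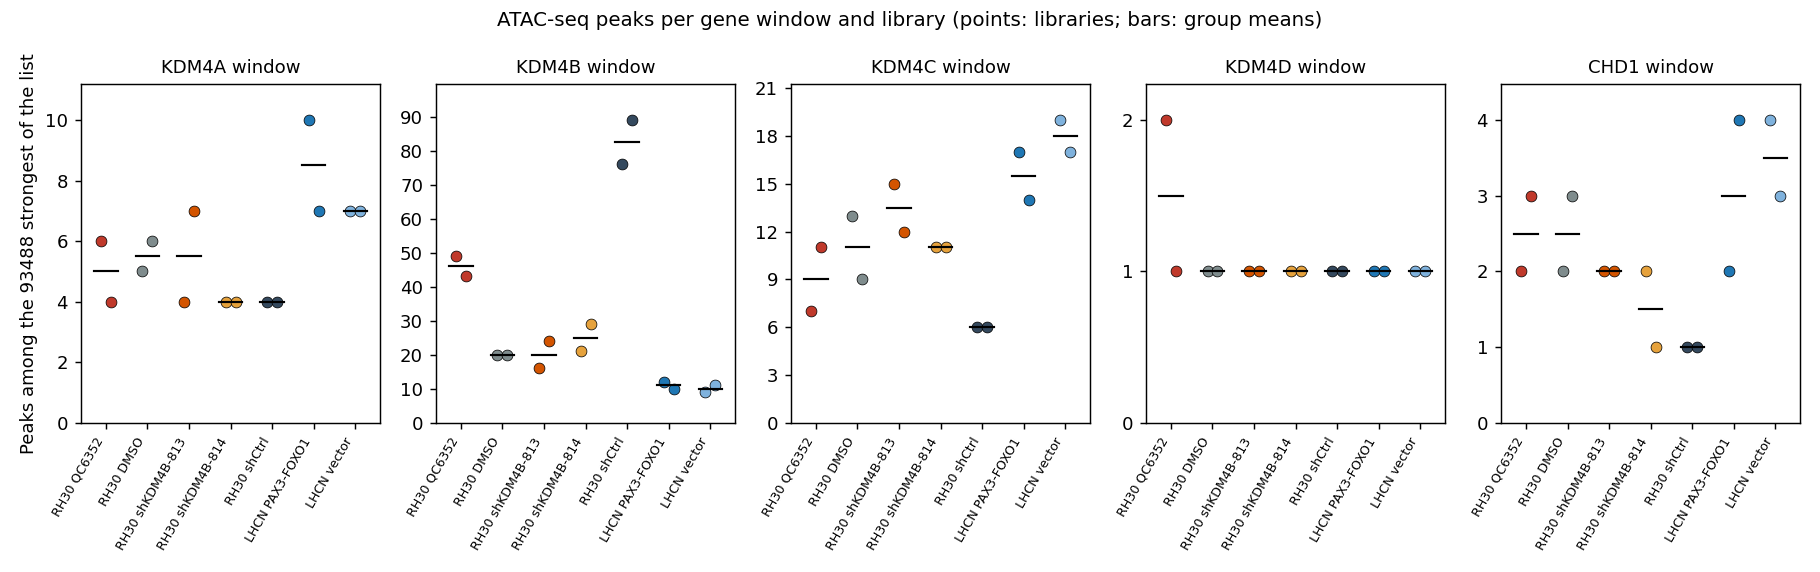
Number of peaks in each gene window among the 93488 strongest of each library; points are libraries and bars are group means (n = 2), with a separate axis from 0 for each gene. At KDM4B the hairpin libraries hold 16 to 29 peaks and the shCtrl libraries 76 and 89, and LHCN libraries hold 9 to 12.

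Regions present in all libraries of one line and absent from the other were rare at these genes. A peak in all 10 RH30 and no LHCN library was found in 3 of 158 regions (1.74% of all regions genome-wide), at KDM4C +22.4 kb, KDM4B +10.0 kb and KDM4B +186.3 kb. Distances run from the summit of the start site, and plus means downstream. KDM4B +186.3 kb (chr19:5153748-5155433), at the 3′ end of the gene, was the one of these with no LHCN peak in the full lists either, with fold values over background from 5.22 to 10.4 in RH30. The reverse was found in 4 regions, against 5.61% genome-wide: KDM4A +61.2 kb and KDM4C +30.7, +94.8 and +139.1 kb. None of these 4 had a peak in the full list of an RH30 library. In LHCN, KDM4C +30.7 kb (chr9:6788081-6788475) had fold values from 11.1 to 24.4 and KDM4A +61.2 kb (chr1:44176673-44177052) from 8.26 to 29.5.

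Apart from the start sites, 10 sites in the full lists had a peak in all 14 libraries. Those of KDM4A were at +57.5 kb (chr1:44172253-44173929), which is the start of the neighbouring gene ST3GAL3, and at +38.9 kb inside the gene. KDM4C had a strong inner site at +174.5 kb (chr9:6931616-6932599), with a median rank of 8798.5 in RH30 and 6517.25 in LHCN. The strongest inner site of KDM4B was at +55.8 kb (chr19:5024044-5024915), with ranks from 2527 to 16502.5 in RH30, against 30288 to 39931.5 in LHCN. KDM4B +20.1 kb (chr19:4988643-4989283) showed the same order, from 9429.5 to 42519 in RH30, against 46933 to 56923 in LHCN. Both KDM4B sites were thus stronger by rank in each RH30 library than in each LHCN library, as were 13.7% of regions open in all 14 equal-length lists. Of the 5 other sites named per window, KDM4B +204.6, +63.0 and +9.3 kb and KDM4C +181.0 kb also had a peak in all 14 libraries, and KDM4C +22.4 kb had one in 12. KDM4A +3.6 kb was found in 8 libraries and KDM4A +22.1 kb in 5. CHD1 had no inner site in all libraries: CHD1 −5.9 kb was found in 9 and CHD1 +2.2 kb in 8, while CHD1 +24.6 and −5.2 kb were found in 0 RH30 and 4 LHCN libraries and CHD1 −9.1 kb in 1 RH30 and 3 LHCN libraries. The one other KDM4D site, at −5.1 kb, was found in 0 RH30 and 3 LHCN libraries. Whether a site lies in an exon or an intron is not given, since no annotation of hg19 was used.

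RH30 libraries differed widely among themselves in the KDM4B gene body. In the full lists the window held 72 and 129 peaks with QC6352, against 22 and 33 with DMSO. It held 38 and 76 with shKDM4B-813 and 24 and 29 with shKDM4B-814, against 123 and 138 with shCtrl. In LHCN it held 19 and 20 with PAX3-FOXO1, against 25 and 22 with vector. The shCtrl libraries were thus higher than all 4 hairpin libraries and both DMSO libraries, and the QC6352 libraries were higher than DMSO. Of the 151 KDM4B sites, 128 lay in the gene body and 124 had a peak in a shCtrl library. In all, 64 were found in no library other than shCtrl and QC6352, and 47 were found in 1 library. Genome-wide shares of such sites are not given here, so these counts describe the window and do not set it apart. Over all peaks of the window, the median fold over background was 5.20 and 5.87 in the shCtrl libraries. It was similarly low in the other RH30 libraries: 5.10 and 4.51 with QC6352 and 6.48 and 5.41 with DMSO. With shKDM4B-813 it was 5.47 and 4.92, and with shKDM4B-814 it was 5.79 and 5.58.

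With lists of equal length within the compound experiment, the KDM4B window held 57 and 56 peaks with QC6352, against 22 and 23 with DMSO. Its mean was 56.5 ± 0.707 with QC6352, against 22.5 ± 0.707 with DMSO (SD, n = 2 each), a difference of 34, and 2 libraries against 2 allow no exact permutation p below 0.333. Of 11445 tiles of the same width, 14% were higher in both QC6352 libraries. Regions with a peak in both QC6352 and no DMSO library numbered 14 of 107 in the 5 windows (6.48% of all regions genome-wide), and 13 of them were among the 79 regions of KDM4B. Their fold values over background were low, from 4.37 to 8.01 at KDM4B. Those with the highest lower percentile of the pair were KDM4B +33.5 kb at 43.6 and KDM4B +63.5, +141.9 and +158.8 kb at 27.0 each, and +7.9 and +175.6 kb tied for the fifth place at 23.3. Of the 13 KDM4B sites, 10 also had a peak in both shCtrl libraries. The one outside KDM4B was KDM4A +3.6 kb (chr1:44119079-44119349), with a fold of 5.46 and 4.51. Without QC6352 1 the count of 14 became 38, and without QC6352 2 it became 34. It was 29 in the lists as deposited and 2 with the 50000 strongest peaks.

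Regions with a peak in both DMSO and no QC6352 library numbered 4 of 107, against 7.21% genome-wide. The strongest was KDM4C +120.4 kb (chr9:6877858-6878226), inside the KDM4C gene. The full lists gave no peak in the first QC6352 library and a fold of 4.03 in the second, against 12.3 and 11.8 with DMSO. This site had a fold of 13.0 and 10.2 with shKDM4B-813 and 15.8 and 9.88 with shKDM4B-814, and no peak with shCtrl. In LHCN it had 10.6 and 15.4 with PAX3-FOXO1, and 10.7 and 10.6 with vector. The site was thus weak or absent in both QC6352 and both shCtrl libraries and had a fold of at least 9.88 in the other 10. The other 3 were KDM4A +56.2 kb, KDM4B +68.6 kb and KDM4B +186.3 kb, with fold values from 4.65 to 9.46. At both KDM4B regions 1 QC6352 library kept a weaker peak, and the +186.3 kb region (chr19:5155032-5155335) is a stretch of the wider site described above. The count of 4 became 10 without QC6352 2 and 7 without DMSO 1, and was 1 in the lists as deposited.

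In the hairpin experiment the equal-length lists held 16 and 24 KDM4B peaks with shKDM4B-813 and 21 and 29 with shKDM4B-814, against 76 and 89 with shCtrl. The mean was 20 ± 5.66 with shKDM4B-813 and 25 ± 5.66 with shKDM4B-814, against 82.5 ± 9.19 with shCtrl (SD, n = 2 each). The hairpins together differed from shCtrl by −60 peaks, with a two-sided exact permutation p of 0.0667, the smallest that 4 libraries against 2 allow. All 4 hairpin libraries were below both shCtrl libraries, as were 10.1% of 11739 tiles of the same width. Set against shCtrl one hairpin at a time, 12.9% of tiles were lower for shKDM4B-813, and for shKDM4B-814 it was 11.6%. The 20 and 20 KDM4B peaks of the DMSO libraries at the same list length lay within the range of the hairpin libraries. The chromosome 19 share of peaks moved with the KDM4B count over the groups: it was 4.04% and 3.28% with QC6352, 5.39% and 5.09% with shCtrl, and at most 2.96% in the other libraries. The 4 libraries of these 2 groups were also those with the weak EPCAM peak. The part of either in the KDM4B counts was not tested.

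**Figure D3:**
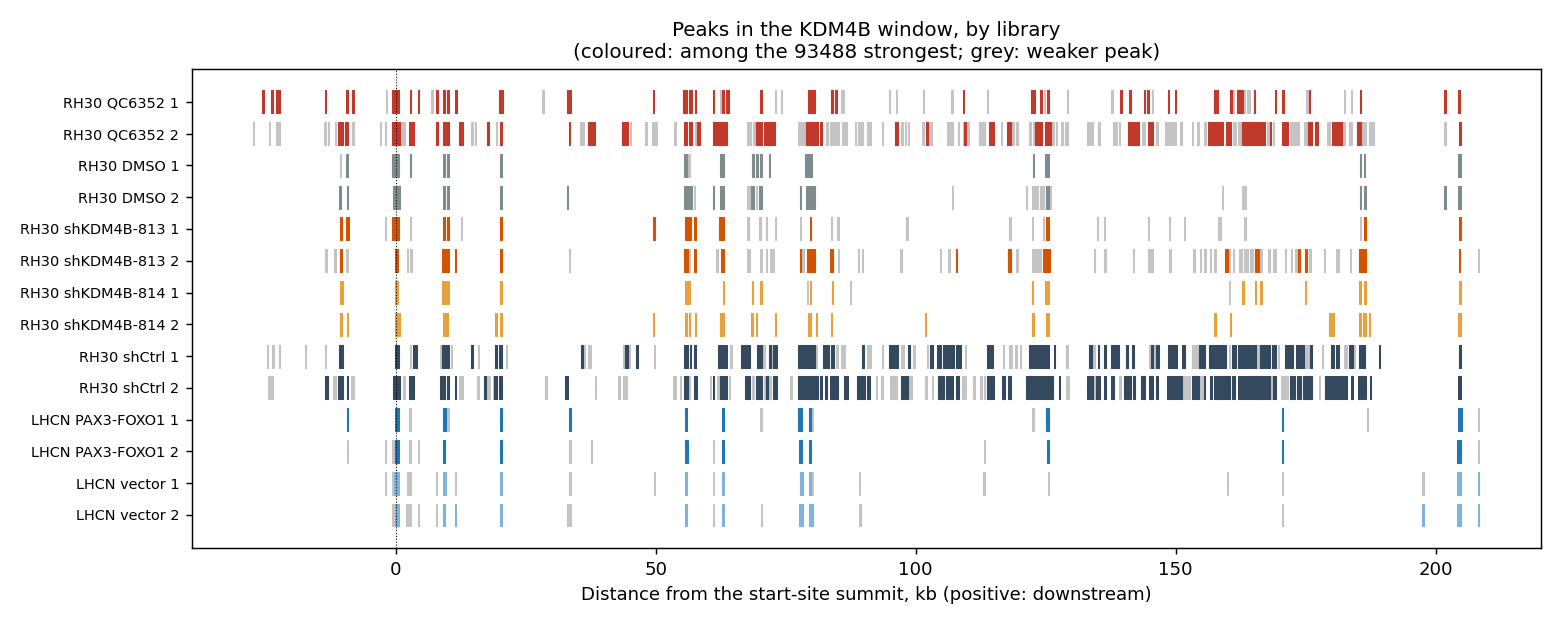
Peaks along the KDM4B window in each library, by distance in kb from the start-site summit, drawn at their true width; coloured peaks are among the 93488 strongest of the list and grey ones are weaker. The hairpin libraries hold 16 to 29 coloured peaks and the 2 shCtrl libraries 76 and 89, most of the shCtrl peaks in the downstream part of the gene.

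**Figure D4:**
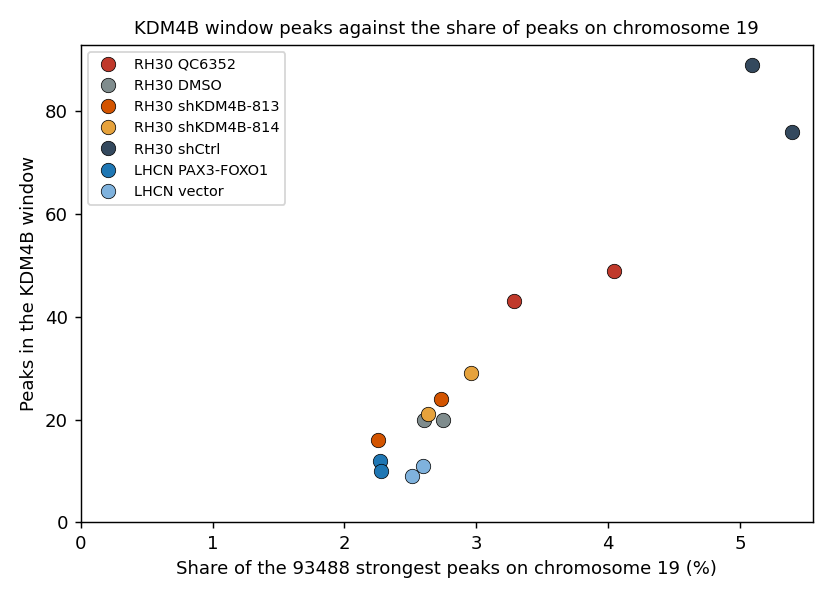
Number of KDM4B window peaks against the share of each library's 93488 strongest peaks that lie on chromosome 19, in percent; each point is a library. The QC6352 libraries lie at 3.28% and 4.04%, DMSO and the hairpin libraries at or below 2.96%, and the shCtrl libraries at the upper right with 5.09% and 5.39%.

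Regions of the 5 windows with a peak in both shCtrl libraries and in no library of a hairpin were all at KDM4B, among its 97 regions. There were 32 of 124 with shKDM4B-813 (7.19% of all regions genome-wide), 30 of 124 with shKDM4B-814 (5.72% genome-wide) and 27 of 124 with neither hairpin (4.53% genome-wide). These comparisons share the shCtrl libraries. All 27 lay in the gene body, and their fold values in shCtrl were from 5.20 to 9.91. The 5 strongest by the lower percentile were KDM4B +161.2 kb (chr19:5129684-5130357) at 65.1, +148.9 kb (chr19:5116806-5119014) at 56.3, and +155.6, +136.4 and +166.2 kb at 43.3 each. At +161.2 kb the fold was 4.92 in the second shKDM4B-813 library, with no peak in the other 3 hairpin libraries, against 7.80 and 9.91 with shCtrl. In 18 of the 27 regions at least 1 shKDM4B-813 library kept a peak below the length limit. Such a peak was kept in 21 of the 32 regions of shKDM4B-813, against 0 of the 30 of shKDM4B-814. The full lists held 140342 and 138884 peaks with shKDM4B-813, against 99660 and 93488 with shKDM4B-814. Trimming to 93488 thus removed many more weak peaks from the shKDM4B-813 lists.

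The count of KDM4B losses changed with the control. With DMSO in place of shCtrl, a comparison chosen after seeing the data, 4 regions of the 5 windows were absent from both shKDM4B-813 libraries and present in both DMSO libraries, 1 from shKDM4B-814 and 0 from all 4 hairpin libraries. DMSO belongs to the compound experiment and carries no hairpin, so hairpin and experiment cannot be told apart in these counts. Their genome-wide share is not given here. Of the 24 sites that hold the 27 regions, 4 had a peak in a DMSO library, 22 in a QC6352 library and 2 in an LHCN library. Without shCtrl 1 the counts became 57 with shKDM4B-813, 56 with shKDM4B-814 and 50 with neither, and without shCtrl 2 the last became 42. With the 50000 strongest peaks they were 9, 8 and 8.

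Regions with a peak in both libraries of a hairpin and in no shCtrl library lay mostly at KDM4C. In the 5 windows there were 7 of 124 with shKDM4B-813 (11.2% genome-wide), 7 with shKDM4B-814 (5.68% genome-wide) and 5 with both hairpins (3.43% genome-wide). Over the 5 windows together these shares were near or below the background. Of the 15 KDM4C regions 5, 5 and 4 were gained in these comparisons. At KDM4C alone the shares were thus 33.3%, 33.3% and 26.7%, above the genome-wide ones. The 5 gained with both hairpins were KDM4A +16.9 kb (chr1:44132255-44132722) and KDM4C +25.6, +116.5, +120.4 and +415.3 kb. KDM4C +415.3 kb (chr9:7172523-7173386), at the 3′ end of the gene, had a fold of 16.6 and 10.7 with shKDM4B-813 and 10.4 and 6.87 with shKDM4B-814, and no peak with shCtrl. It was also open with DMSO, at 5.98 and 6.42, and in LHCN, at 31.0 and 40.6 with PAX3-FOXO1 and 24.4 and 22.5 with vector. At KDM4A +16.9 kb the second shCtrl library kept a weaker peak, with a fold of 4.77. With shKDM4B-813 alone KDM4C +417.4 kb and CHD1 +2.2 kb (chr5:98262897-98263228) were added, and with shKDM4B-814 alone KDM4C +346.3 kb and KDM4B +68.6 kb. With DMSO in place of shCtrl, 2 regions were gained with shKDM4B-813, 1 with shKDM4B-814 and 0 with both, again across experiments and without a genome-wide share. Without shKDM4B-813 2 its count of 7 became 12.

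Over the whole KDM4C window the hairpin libraries held more peaks than shCtrl, 15 and 12 in the shKDM4B-813 libraries and 11 and 11 in the shKDM4B-814 libraries, against 6 and 6 in the shCtrl libraries. The difference was 6.25 peaks (two-sided exact permutation p = 0.0667, the smallest possible). That order was the usual one: 55.9% of 5748 tiles of the same width were higher in all 4 hairpin libraries, 68.9% in both shKDM4B-813 libraries and 61.5% in both shKDM4B-814 libraries. QC6352 libraries held 8 and 13 KDM4C peaks, against 13 and 9 with DMSO, which overlapped. The CHD1 window held 2 and 2 peaks with shKDM4B-813 and 2 and 1 with shKDM4B-814, against 1 and 1 with shCtrl, and 46.1% of tiles of its width were likewise higher in both shKDM4B-813 libraries.

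The test over both experiments, in which QC6352 and the hairpins count as perturbed, called no window. For KDM4B the compound and hairpin differences had opposite signs, 34 and −60 peaks, and their mean was −13 (two-sided exact permutation p = 0.444, adjusted p = 1.00). For KDM4C the mean was 2.88 peaks (exact permutation p = 0.189, adjusted p = 0.667). For KDM4A, KDM4D and CHD1 the means were 0.375, 0.25 and 0.125 peaks, with exact permutation p-values from 0.833 to 1.00.

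PAX3-FOXO1 in LHCN was accompanied by few differences in the windows, at shares not far from the genome-wide ones. Regions with a peak in both PAX3-FOXO1 and no vector library numbered 7 of 107 in the windows (8.15% of all regions genome-wide), and the reverse 12 of 107 (8.44% genome-wide). The KDM4C window had 49 regions, of which 12.2% were gained and 12.2% lost. Of the gained regions 6 lay at KDM4C, at +22.4, +143.7, +299.3, +363.6, +393.0 and +428.7 kb, with fold values from 3.87 to 8.78, and 1 lay upstream of KDM4B, at −9.4 kb. KDM4C +22.4 kb (chr9:6779503-6780250) had a weak peak with PAX3-FOXO1, with a fold of 5.68 and 6.29 at ranks 120557 and 131285, and no peak with vector. In RH30 this site was open in 10 of 10 libraries, with ranks from 10378.5 to 59991. KDM4B −9.4 kb also had a peak in 8 of 10 RH30 libraries, QC6352 and DMSO among them. The other 5 gained sites had a peak in 0 of 10 RH30 libraries, so 2 of the 7 were also found in RH30. The genome-wide share of gained regions that are also open in RH30 is not given here. The count of 7 became 13 without PAX3-FOXO1 2.

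The regions lost with PAX3-FOXO1 were KDM4C −18.2, +48.1, +86.3, +173.4, +187.5 and +216.3 kb, KDM4B +2.2, +7.9, +11.5, +89.4 and +197.6 kb, and CHD1 +56.7 kb. The strongest was KDM4C +187.5 kb (chr9:6944933-6945240), with no peak in any PAX3-FOXO1 or RH30 library and a fold of 18.1 and 19.5 with vector. Of the 12 lost sites, 5 had a peak in 1 to 4 RH30 libraries and 7 in none, again without a genome-wide share to set beside them. KDM4B +197.6 kb (chr19:5166203-5166530) had a fold of 6.84 and 12.1 with vector. The count of 12 became 20 without vector 2, and with the 50000 strongest peaks 0 regions were gained and 3 lost. Window counts in the lists trimmed for LHCN were lower with PAX3-FOXO1 at KDM4B, 19 ± 1.41 against 23.5 ± 2.12 with vector (SD, n = 2 each), as in 29.6% of tiles of that width. At CHD1 they were 6 ± 1.41 with PAX3-FOXO1, against 8 in both vector libraries, as in 25.2% of tiles. At KDM4C they overlapped, with 35 in both PAX3-FOXO1 libraries, against 35.5 ± 2.12 with vector.

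**Figure D5:**
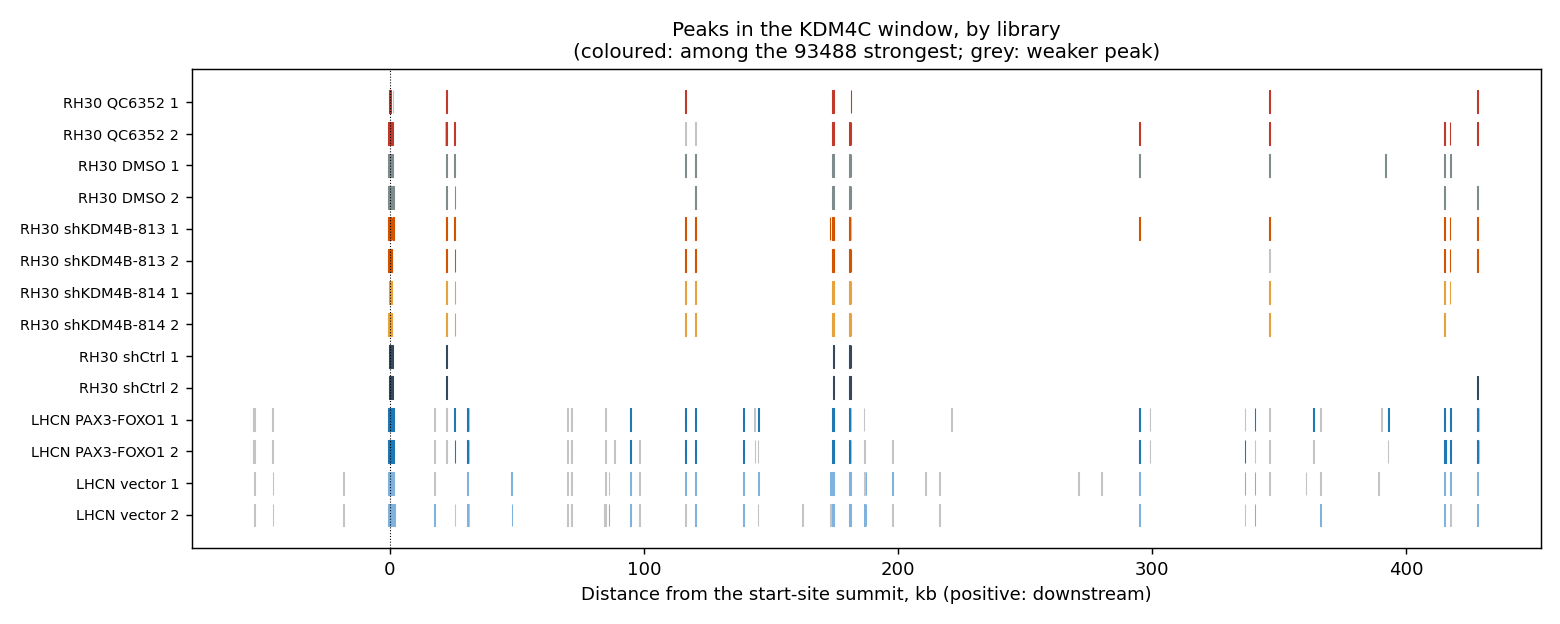
Peaks along the KDM4C window in each library, by distance in kb from the start-site summit, drawn at their true width; coloured peaks are among the 93488 strongest of the list and grey ones are weaker. RH30 libraries hold 6 to 16 peaks and LHCN libraries 34 to 37, and the site 187.5 kb downstream appears in the vector libraries alone.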

How the data were processed

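ATAC-seq peaks were taken from 14 deposited narrowPeak lists, 1 per library. The submitters' processing notes name MACS2 2.1.1, SAMtools 1.3.1, Picard 1.65 and BWA 0.7.12-r1039, and the build hg19. No tool setting, read filter or Tn5 shift is given in the sources used here. A score column of the authors' lists was left unused. The authors' fold value is a ratio over background, used within a list to break ties in rank and to describe peaks. The authors' −log10 q value ranked the peaks, and the deposited −log10 p value was not used. A list holds only peaks past a limit, so absence means that no peak passed it or, in trimmed lists, that none was among those kept.

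Lists were trimmed to the shortest of each experiment, 170390 peaks in LHCN, 105136 in the compound and 93488 in the hairpin experiment, or to 93488 for all 14. Peaks overlapping by 1 bp or more were merged into regions, and those of the full lists into sites. A region was gained when all treated and no control libraries had a peak, and lost in the reverse case. Peak number per window and start-site percentile were tested by two-sided exact permutation (1001 label sets between lines, 90 within experiments) with Benjamini-Hochberg adjustment and a threshold of 0.05. The code was tested on simulated data. Read depth is unknown, and 2 libraries per group limit precision.

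Sample titles gave the groups and replicate numbers. The members and lists were chosen with earlier results of these data known. Start sites were the peaks within 2 kb of the known gene starts, placed to the nearest kb from general knowledge; CHD1 used its longest transcripts. Named were the start sites, the 5 other sites per window found in most libraries, and called regions, with the 5 highest by percentile where a comparison called more than 10 (for PAX3-FOXO1 all are listed). Alternatives covered list length, −log10 q, ties, overlap, controls, replicate blocks and single libraries left out. Analyses used Python 3.11.15, numpy 2.4.6 and pandas 2.3.3.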

Additional observations from a re-analysis of the deposited data

Results flagged for a closer look

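The number of KDM4B window peaks moved in opposite directions in the 2 RH30 experiments. It averaged 56.5 ± 0.707 with QC6352, against 22.5 ± 0.707 with DMSO, and 22.5 ± 5.45 with the hairpins, against 82.5 ± 9.19 with shCtrl (SD, n = 2 per group and n = 4 for the hairpins). The compound difference exceeded the hairpin difference by 94 peaks, with an exact permutation p of 0.0111, the smallest the 90 label sets allow, and an adjusted p of 0.111 over 10 values. The window was flagged after seeing the data, because the groups of both experiments were fully separate and moved in opposite directions. That rule alone fixes the p at its smallest value, so the p adds no evidence. The share of peaks on chromosome 19 was higher in both QC6352 than in both DMSO libraries and lower in all 4 hairpin than in both shCtrl libraries, and its part in the difference was not tested.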

How the results depend on the processing

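Counts of called regions in the 5 windows moved with how many weak peaks were kept and, for the hairpins, with the control used. With the 50000 strongest peaks PAX3-FOXO1 had 0 gained and 3 lost, QC6352 had 2 and 2, shKDM4B-813 had 3 and 9, shKDM4B-814 had 3 and 8, and both hairpins had 2 and 8. With strong peaks set against full absence they were 0 and 0, 0 and 0, 2 and 1, 2 and 2, and 2 and 0 in the same order. With −log10 q of at least 10 they were 3 gained and 2 lost for QC6352, 6 lost for shKDM4B-813, 1 gained and 6 lost for shKDM4B-814, and 1 and 6 for both. The lists as deposited gave 29 gained and 1 lost for QC6352 and 51 lost for shKDM4B-814, and a peak cover of 50% gave 6 gained for QC6352. With DMSO of the compound experiment in place of shCtrl, added after seeing the data, they were 2 and 4 for shKDM4B-813, 1 and 1 for shKDM4B-814, and 0 and 0 for both. The cause was not tested.

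The line difference in peak number was with the 50000 strongest peaks −0.55 for KDM4A (adjusted exact permutation p = 0.512), 9.75 for KDM4B (0.220), −0.50 for KDM4C (0.940) and 0.20 for CHD1 (0.934). For KDM4B it was 46.9 in the deposited lists (0.0579), −0.15 at −log10 q of at least 10 (1.00) and 32.6 with ties kept from the last position (0.0516). For KDM4D it was −0.65 in the deposited lists and −0.50 at −log10 q of at least 10. For CHD1 it was −1.10 with ties from the last position (0.0587) and −1.25 without shCtrl and QC6352 (0.125). The ties setting and the set without shCtrl and QC6352 were not planned in advance. Those of the perturbation test that changed sign were the KDM4A peak number, −0.25 both at −log10 q of at least 10 and with 50000 peaks, and the KDM4C start-site percentile, 1.71 at −log10 q of at least 10. The cause was not tested.

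With 1 library left out, PAX3-FOXO1 had 9 to 13 gained and 15 to 20 lost, QC6352 had 17 to 38 and 4 to 10, shKDM4B-813 had 7 to 12 and 32 to 57, shKDM4B-814 had 7 to 9 and 33 to 56, and both hairpins had 5 to 6 and 27 to 50. A rule over fewer libraries is easier to meet. Line differences ranged from −1.77 to −1.10 for CHD1, −3.20 to −2.20 for KDM4A, 22.6 to 30.7 for KDM4B, −7.57 to −5.90 for KDM4C and 0 to 0.111 for KDM4D. Perturbed minus control ranged for CHD1 from −0.375 to 0.625 peaks and from −1.63 to 0.24 percentile points, and in percentile points from −3.58 to 3.23 for KDM4C and −3.10 to 10.1 for KDM4D. Same-numbered libraries did not deviate together, with correlations from −0.0538 to 0.0592. The replicate block (labels permuted within replicate number) changed no call: the KDM4A start-site percentile differed by −2.24 points, with an exact permutation p of 0.0278 and an adjusted p of 0.278. Tied peaks at the trimming limit, 292 to 15215 per list, limit how finely weak peaks can be compared.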
